A study of Mus musculus with 16 samples.

Results

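The 8 genes described here carry the main steps of iron handling in an intestinal cell: Slc11a2, Cybrd1, Tfrc, Slc40a1, Heph, Fth1, Ftl1 and Hmox1. They were chosen by name, out of 24940 genes in the table of read counts per gene, and all 8 were found there and passed the filter on low counts in every comparison. The libraries were made from poly(A) RNA of the ileum, cut just before the cecum, of 16 C57BL/6 mice, with 4 males and 4 females of each of 2 genotypes, WT and LKO. WT animals were Bcl6 fl/fl, with loxP-flanked copies of the gene of the repressor BCL6. LKO animals (Alb-cre, Bcl6 fl/fl) carried the same floxed alleles and in addition Cre recombinase under the albumin promoter, which removes Bcl6 from hepatocytes and leaves it in the intestine. No age was given for the animals, so age could not be compared between groups. The genotype comparison therefore asks whether loss of a liver gene is followed by a different level of iron genes in the ileum, and no iron measurement or dietary iron treatment was part of it.

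Dietary ferric iron is reduced at the brush border by CYBRD1 (duodenal cytochrome b) and enters the enterocyte through SLC11A2 (DMT1). It is held in the cytosol by ferritin, a shell of FTH1 heavy and FTL1 light chains, and leaves through SLC40A1 (ferroportin), the only known cellular iron exporter, with the ferroxidase HEPH (hephaestin) beside it. TFRC, the transferrin receptor, brings in iron from the blood side and is used most by dividing cells, and HMOX1 (haem oxygenase 1) frees iron from haem. Most dietary iron is absorbed in the duodenum, and the ileum is known for bile acid uptake instead. Several of these transcripts hold an iron-responsive element (IRE), a short RNA hairpin that iron regulatory proteins (ACO1 and IREB2) bind when iron is low. An IRE before the coding sequence blocks translation when bound, whereas IREs after it protect the transcript from decay, so a transcript count reads the second kind more directly than the first.

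Matches to IRE letters are shown to give their place in the 8 genes. Several of these genes are known to hold an IRE, so a high share of matches among them follows from their choice and is no result. The letters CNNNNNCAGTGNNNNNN, with A, C or T after CAGTG and with the 5 bases before the loop pairing with the 5 after it (G:T pairs allowed), were searched on the transcript strand in the untranslated regions (UTRs) of GENCODE M21 transcripts on GRCm38, the assembly called mm10. They stood in 108 of 21877 protein-coding genes (0.494%) and in 4 of the 8 genes here, 7 times in all. The 29-base windows below run 5′ to 3′ on the transcript, with the loop of 6 bases in capitals.
Fth1, 5′ UTR, chr19:9982732-9982760, plus strand: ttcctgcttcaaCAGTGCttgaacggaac
Ftl1, 5′ UTR, chr7:45459779-45459807, minus strand: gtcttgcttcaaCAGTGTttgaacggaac
Slc40a1, 5′ UTR, chr1:45925465-45925493, minus strand: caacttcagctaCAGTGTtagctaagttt
Tfrc, 3′ UTR, chr16:32631219-32631247, plus strand: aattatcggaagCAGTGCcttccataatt
Tfrc, 3′ UTR, chr16:32631598-32631626, plus strand: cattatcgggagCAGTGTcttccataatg
Tfrc, 3′ UTR, chr16:32631663-32631691, plus strand: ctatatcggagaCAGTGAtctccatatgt
Tfrc, 3′ UTR, chr16:32631710-32631738, plus strand: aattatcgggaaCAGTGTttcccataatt
The windows of Fth1 and Ftl1 were identical at 26 of 29 positions, the 4 Tfrc windows at 18 to 25 of 29 with each other, and Fth1 and the Tfrc windows at 9 to 11 of 29. For Slc11a2, Cybrd1, Heph and Hmox1 these letters were not in the UTRs of the transcript that was counted. The search required all 5 pairs with no unpaired base between them, so an IRE of another form would be missed. Absence of these letters therefore does not show that a gene lacks an IRE. A match in the other genes is a match of letters and not a measured binding site.

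The 15 shallower libraries held between 15.7 and 20.5 M counts (M, mega) and female LKO replicate 1 held 60.3 M. Levels are given as counts per M (CPM) scaled by the trimmed mean of M-values (TMM), and 3 counts, the most that a count of 0 allows, were between 0.0485 and 0.191 CPM. This limit covers counting error only. Bcl6 itself averaged 15.9 ± 1.61 CPM in male WT, 18.9 ± 2.05 in male LKO, 12.1 ± 2.92 in female WT and 20.7 ± 5.03 in female LKO (SD, n = 4 each), so it was transcribed in the ileum of every LKO animal. Every female LKO library (15.2 CPM or more) narrowly exceeded every female WT library (15.1 CPM or less), as groups did not overlap for 6.31% of 15298 genes tested in females. The log2 fold change of Bcl6 was 0.77 (SE 0.21, adjusted p 0.285, edgeR) in females and 0.26 (SE 0.11, adjusted p 0.879) in males. The tissue label was met by the ileal markers Fabp6 and Slc10a2, whose lowest libraries held 2692 and 426 CPM, whereas 5 markers of the proximal small intestine summed to at most 24.3 CPM. The hepatocyte list summed to between 1168 and 1992 CPM, nearly all of it Apob, which enterocytes also transcribe, and Alb reached at most 3.31 CPM. None of the markers in the table was at 0 in all libraries. Some libraries stood apart. Colon markers summed to 849 CPM in male WT replicate 4, 1599 in male LKO replicate 2 and 1180 in female WT replicate 1, against a median of 341 and at most 615 in the other 13, and Car1 alone ran from 0 to 1155 CPM. B cell markers summed to 102 CPM in male WT replicate 2, 172 in female LKO replicate 2 and 326 in female LKO replicate 3, against at most 60.5 in the other 13. These last 2 libraries also held the most Bcl6 (23.6 and 26.1 CPM), and without the 3 libraries rich in B cell markers the female difference in Bcl6 was 0.47 (SE 0.19, adjusted p 0.579). In whole tissue, fewer cells of a type and less RNA per cell cannot be told apart.

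Storage transcripts were the most abundant of the 8. Scaled by the exon length (reads per kilobase per M, RPKM, which allows genes to be compared), the order of the mean levels over 16 libraries was Fth1 (1133 RPKM), Ftl1 (407), Heph (45.5), Tfrc (43.4), Slc40a1 (34.1), Slc11a2 (13.4), Hmox1 (2.82) and Cybrd1 (1.62). Fth1 lay above 99.8% and Ftl1 above 99.1% of the 15598 genes tested, while Hmox1 lay above 30.4% and Cybrd1 above 22.0%. Heph and Tfrc overlapped in range, and so did Tfrc and Slc40a1, whereas the other neighbours in the order were apart in 16 of 16 libraries. The brush-border reductase was the lowest of the 8, and the importer Slc11a2 lay 4.75-fold above Hmox1 and Hmox1 1.75-fold above Cybrd1.

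**Figure D1:**
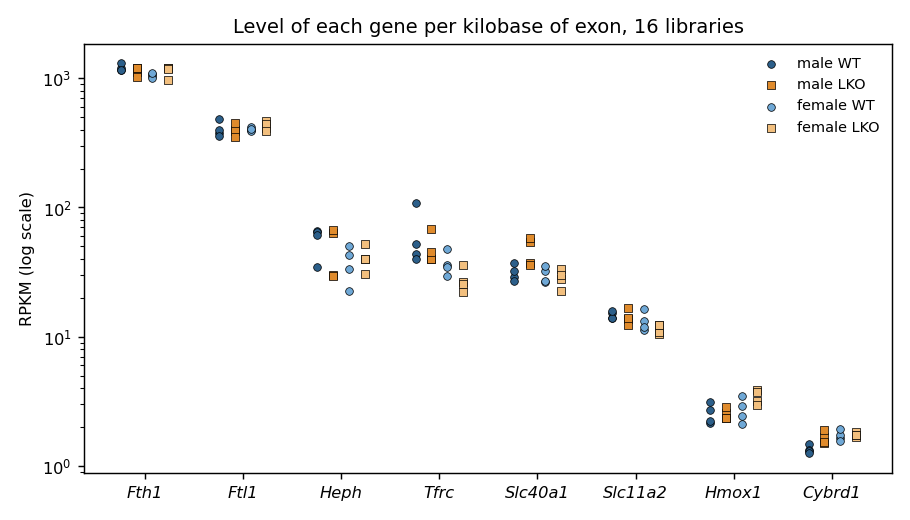
Levels of the 8 genes per kilobase of exon (RPKM, log scale) in 16 libraries, ordered by their mean, with 1 point per library and colours for the 4 groups. Fth1 (mean 1133 RPKM) and Ftl1 (407 RPKM) stand above all the others, Heph, Tfrc and Slc40a1 run into each other, and Cybrd1 (1.62 RPKM) is the lowest.

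The Ftl1 level has a limit of its own. Of the 869 stretches of 100 bases (the read length) in the Ftl1 transcript, 683 (78.6%) were found letter for letter in transcripts of 6 other annotated genes, Ftl1-ps1 and Ftl2-ps among them. None of those 6 is in the count table. The study kept only reads with a single mapping position, and a read that matches several places is dropped by such a filter, so the Ftl1 level may be understated. If none of the reads from shared stretches had been counted, the level over the other 186 stretches would be 1903 RPKM, above Fth1. For Fth1 the share was 0.964%, for Cybrd1 0.611%, and for the other 5 genes 0. Heph overlaps the opposite-strand gene Hsf3 by 859 bases at its start, and Hsf3 never exceeded 18 counts.

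**Figure D2:**
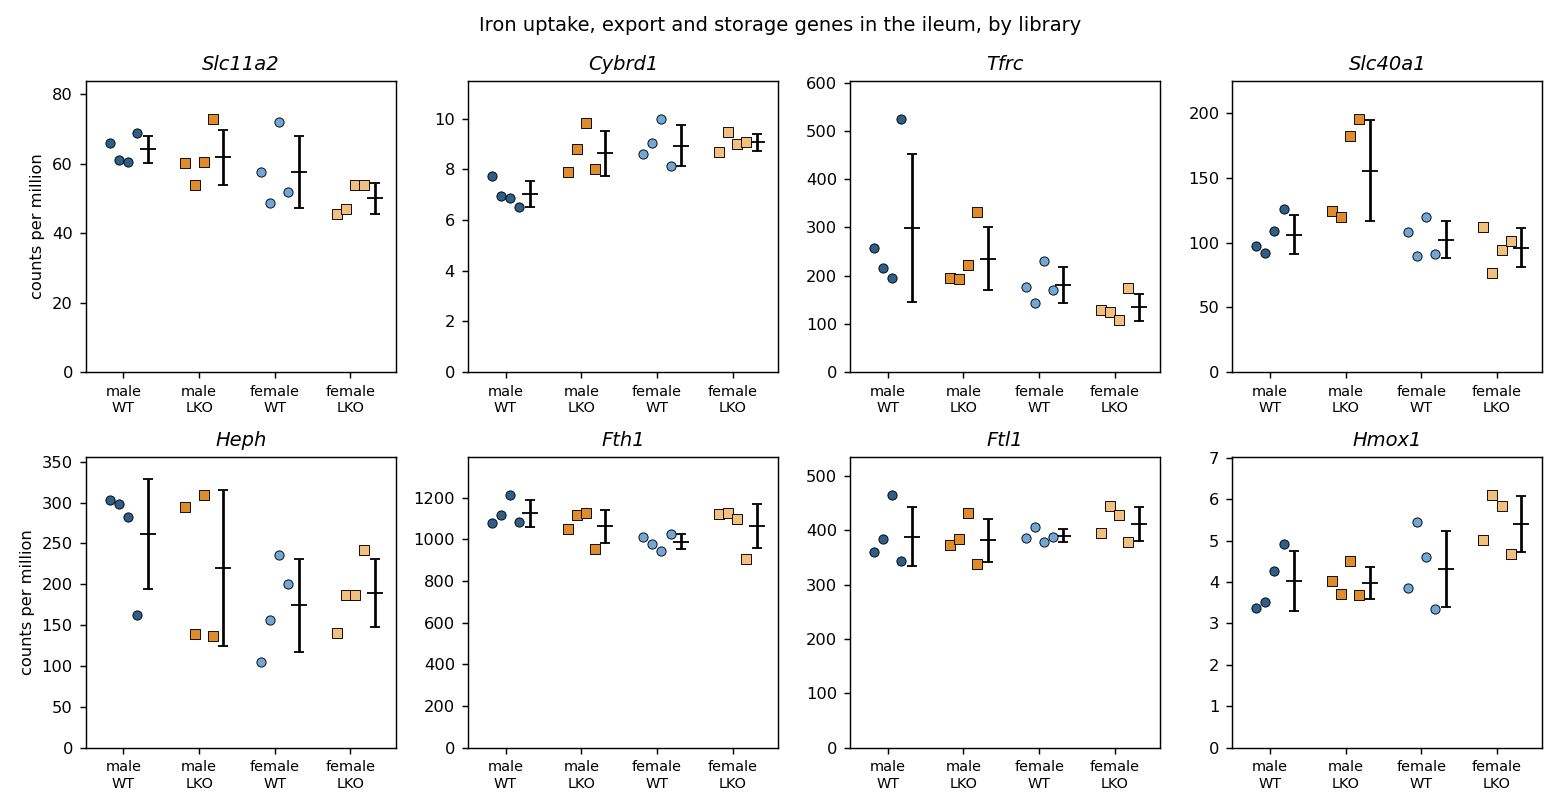
CPM of each of the 8 genes in the 16 libraries, by group, with 1 point per library in the order of the replicate numbers and a bar for the mean ± SD (n = 4). Tfrc is highest in 1 male WT library (525 CPM), Slc40a1 in 2 male LKO libraries (182 and 195 CPM), and Heph falls into a high and a low set of libraries among the males.

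Brush-border uptake was described by Slc11a2 (chr15:100392658-100423055) and Cybrd1 (chr2:71118054-71142926). Slc11a2 stood at 66.04, 61.04, 60.5 and 68.9 CPM in male WT and at 60.2, 53.98, 60.7 and 72.9 CPM in male LKO. In females it stood at 57.7, 48.8, 72.04 and 51.9 CPM in WT and at 45.5, 47.1, 53.99 and 53.9 CPM in LKO. The genotypes overlapped in both sexes, and the female LKO libraries all lay at or below 53.99 CPM, where the lowest male library stood at 53.98 CPM. For LKO against WT the log2 fold change of Slc11a2 was -0.04 (95% interval -0.23 to 0.14) in males and -0.20 (-0.46 to 0.06) in females, with an adjusted p of 0.999 and 0.512 (edgeR quasi-likelihood test, Benjamini-Hochberg over all genes).

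Cybrd1 stood at 7.73, 6.95, 6.86 and 6.52 CPM in male WT and at 7.89, 8.79, 9.82 and 8.02 CPM in male LKO, and every male LKO library exceeded every male WT library. In females it stood at 8.61, 9.03, 9.99 and 8.12 CPM in WT and at 8.69, 9.47, 8.99 and 9.09 CPM in LKO, where the groups overlapped. The male groups were apart by a log2 fold change of 0.30 (SE 0.13), a 1.23-fold difference with an unadjusted p of 0.0327 and an adjusted p of 0.899. Groups without overlap were found for 1 of the 8 genes in males, against 2.97% of the 15169 genes tested there, and for 0 of the 8 in females, against 6.31% of 15298. In females the log2 fold change was 0.02 (95% interval -0.21 to 0.25).

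Uptake from the blood side was described by Tfrc (chr16:32608896-32632794), the most variable of the 8, with a coefficient of variation of 47.2% over all 16 libraries against 7.89% to 33.1% for the others. It stood at 257.5, 215, 195 and 525 CPM in male WT and at 195, 194, 221 and 333 CPM in male LKO. In females it stood at 176, 144, 231 and 171 CPM in WT and at 129, 125, 108 and 175 CPM in LKO. Male WT replicate 4 was far above its 3 companions, and 3 of the 4 female LKO libraries were the lowest of all 16. LKO males differed from WT males by -0.33 on the log2 scale (SE 0.38) and LKO females from WT females by -0.43 (SE 0.18), a 0.744-fold level in female LKO with an unadjusted p of 0.0495 and an adjusted p of 0.426. Without male WT replicate 4 the male difference turned to 0.08, and without male LKO replicate 2 as well, the other male library rich in colon markers, to 0.17. Over both sexes it was -0.38 (95% interval -0.83 to 0.07, adjusted p = 0.539, edgeR).

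Export was described by Slc40a1 (chr1:45908070-45925594) and Heph (chrX:96455436-96574484). Slc40a1 stood at 97.6, 91.7, 109 and 126 CPM in male WT and at 124, 119.9, 182 and 195 CPM in male LKO. In females it stood at 108, 89.6, 119 and 91.3 CPM in WT and at 112, 76.6, 94.05 and 101 CPM in LKO. The 2 highest male LKO libraries exceeded all others, the other 2 lay within the upper end of the WT libraries, and the female groups overlapped throughout. The male log2 fold change was 0.56 (SE 0.19), or 1.47-fold, with an unadjusted p of 0.0203 and an adjusted p of 0.853 under edgeR. DESeq2 gave an adjusted p of 0.0532. The female log2 fold change was -0.08 (SE 0.13). The difference between these effects was itself tested, and the interaction was 0.63 on the log2 scale (SE 0.24), with an unadjusted p of 0.0205 and an adjusted p of 0.845. In the male animals the number in the sample title was lower in every WT library than in every LKO library, and with that number as a covariate the male difference in Slc40a1 was 0.08. Genotype and title number cannot be told apart in the males. The edgeR call and the direction did not change when any single male library was left out, with estimates between 0.43 and 0.66.

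Heph stood at 303, 298, 283 and 162 CPM in male WT and at 295, 139, 309.7 and 136 CPM in male LKO. In females it stood at 105, 156, 235 and 199.9 CPM in WT and at 141, 187, 187 and 243 CPM in LKO. In both genotypes together, 5 male libraries lay between 283 and 309.7 CPM and the other 3 between 136 and 162 CPM, whereas no female library exceeded 243 CPM. Its log2 fold change for LKO against WT was -0.25 in males (95% interval -1.16 to 0.67) and 0.12 in females (-0.54 to 0.78), so these intervals cover changes in either direction. After group means were removed, Heph rose and fell with the summed enterocyte markers (Vil1, Epcam, Cdh1, Fabp2, Alpi, Anpep and Krt20) with r = 0.76 over 16 libraries, the closest relation of any of the 8 genes to that list. Without the 3 libraries rich in colon markers that r was 0.61 over 13. With the colon list Heph gave r = -0.58, and 0.14 without those 3 libraries, in which Heph stood at 162, 139 and 105 CPM. The part of enterocyte number or colon tissue in the spread of Heph was not tested.

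Storage was described by the ferritin chains Fth1 (chr19:9982646-9985111) and Ftl1 (chr7:45457944-45459886), the steadiest of the 8. Fth1 averaged 1125 ± 62.7 CPM in male WT, 1064 ± 79.5 in male LKO, 990 ± 36.6 in female WT and 1063 ± 106 in female LKO (SD, n = 4 each). Ftl1 averaged 388 ± 53.8, 381 ± 38.9, 390 ± 11.9 and 412 ± 30.6 CPM in the same order. For both chains the groups overlapped in each comparison, and the intervals were the narrowest of the 8 over both sexes. LKO against WT gave a log2 fold change of 0.01 for Fth1 (95% interval -0.10 to 0.12) and of 0.03 for Ftl1 (-0.10 to 0.15).

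Hmox1 (chr8:75093618-75100593) stood at 3.38, 3.51, 4.27 and 4.93 CPM in male WT and at 4.02, 3.71, 4.50 and 3.67 CPM in male LKO. In females it stood at 3.85, 5.45, 4.61 and 3.35 CPM in WT and at 5.01, 6.11, 5.84 and 4.68 CPM in LKO. The 2 highest values were both in female LKO, and the groups overlapped in both sexes. LKO differed from WT by a log2 fold change of -0.01 (SE 0.17) among males and 0.32 (SE 0.17) among females, with an adjusted p of 0.999 and 0.485 (edgeR).

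None of the 8 genes passed the threshold (adjusted p below 0.05) for genotype. In males 0 of the 8 passed, against 0.0527% of 15169 genes, and in females 0 of the 8, against 0.0392% of 15298 genes. Over both sexes 0 of the 8 passed, against 0.269% of 15598 genes, and for the genotype by sex interaction 0, against 0.00%. At an unadjusted p below 0.05 the counts were 2 of 8 in males (Cybrd1 and Slc40a1, against 5.29% of all genes tested), 1 in females (Tfrc, against 11.7%), 0 over both sexes (11.2%) and 1 for the interaction (Slc40a1, 5.64%). DESeq2 also called 0 of the 8 in each of these 4 comparisons.

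**Figure D3:**
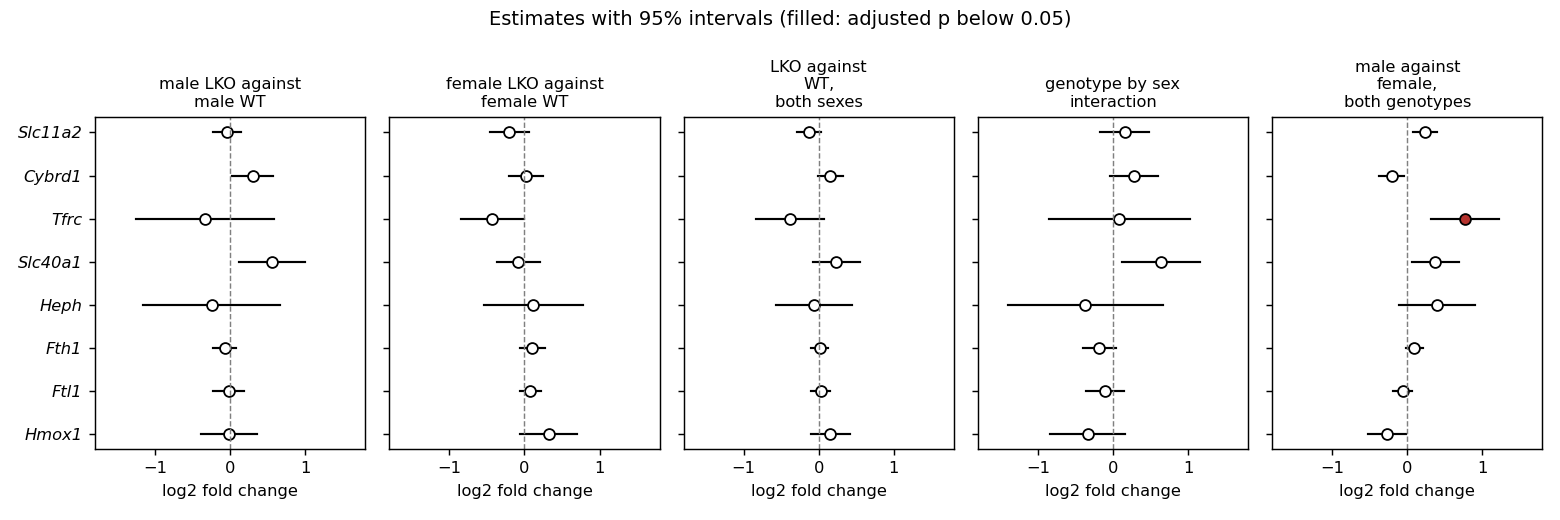
Log2 fold changes of the 8 genes (points) with 95% intervals (lines) in 5 comparisons, where positive values are higher in the group named first and the interaction is the male minus the female genotype effect. The only filled point (adjusted p below 0.05) is Tfrc between the sexes, at 0.77.

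The comparison of the sexes, with genotype as a covariate, was passed by 1 of the 8 iron genes and by 11.0% of the 15598 genes tested. Of these 1723 genes 875 were higher and 848 lower in males, and under upper-quartile scaling the split was 424 to 1197. Tfrc lay between 194 and 525 CPM in males (median 218) and between 108 and 231 CPM in females (median 157), so that the ranges overlapped in the middle. It was 1.70-fold higher in males, a difference of 0.77 on the log2 scale (SE 0.21) with an adjusted p of 0.0342 (edgeR). DESeq2 gave an adjusted p of 0.00474. This call was lost when any of 8 single libraries was left out: male LKO replicates 3 and 4, female WT replicates 1, 2 and 4, and female LKO replicates 1, 2 and 3 (adjusted p 0.0547 to 0.0700, log2 fold change 0.66 to 0.78). Without male WT replicate 4, which held the highest value, it was 0.58 with an adjusted p of 0.0479, and with the title number as a covariate it was 0.50 with an adjusted p of 0.230. The call was also lost without the 3 libraries rich in colon markers (0.62, adjusted p 0.0728) and without the 3 rich in B cell markers (0.75, adjusted p 0.106).

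The other 7 genes did not pass between the sexes under edgeR, and DESeq2 called 2 of the 8, Tfrc and Slc11a2. Slc11a2 had a median of 60.8 CPM in males and 52.9 CPM in females, a log2 fold change of 0.23 with an adjusted p of 0.0571, which DESeq2 put at 0.0357. Slc40a1 gave 0.38 (adjusted p 0.110) and Heph 0.40 (0.272), also with the higher mean in males. Cybrd1 gave -0.21 (adjusted p 0.0923) and Hmox1 -0.27 (0.146), with the higher mean in females. At an unadjusted p below 0.05 stood 5 of the 8 genes, against 29.3% of all genes tested. Fth1 gave 0.09 (95% interval -0.02 to 0.21) and Ftl1 -0.06 (-0.18 to 0.07).

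Markers of other cells differed between the sexes in the same libraries, where 11.0% of all genes tested passed. Of 5 smooth muscle markers 4 were lower in males (Acta2, Myh11, Des and Cnn1), with sums of 2385 to 3073 CPM in males and 3039 to 4661 CPM in females. Of 7 enterocyte markers 3 were higher in males (Vil1, Epcam and Krt20), with sums of 20445 to 24384 and 18323 to 22252 CPM. All 8 proliferation markers had a higher estimate in males, 4 of them at an unadjusted p below 0.05 (edgeR), against 29.3% of all genes tested. Of the 8 only Mki67 passed, and the sums ran from 692 to 886 and from 627 to 723 CPM. The red cell list, which includes the globins, summed to between 24.2 and 93.7 CPM in males and between 15.1 and 42.8 CPM in females. None of its 7 tested genes passed, though all 7 had a higher estimate in males and 5 stood at an unadjusted p below 0.05 (edgeR). Hba-a1 and Hba-a2, Hbb-bs and Hbb-b1, and Hbb-bt and Hbb-b2 gave identical estimates in the genotype comparisons. Globin reads therefore appear to enter these sums more than once, and the 7 genes are not all separate measurements. Of 10 macrophage markers C1qb was lower in males, with sums of 537 to 623 and 524 to 739 CPM. None of the 7 B cell markers, 5 ileal and 3 tested colon markers passed, Apob of the hepatocyte list was higher in males, and in the proximal list Fabp1 was lower and Adh6a higher. In the genotype comparisons none of these markers passed under edgeR, and DESeq2 called 1 ileal marker in each sex. The 5 B cell markers tested in females had a median log2 fold change of 2.61 in LKO, where only replicates 2 and 3 had high sums, and for the interaction 5 of 7 stood at an unadjusted p below 0.05 with a median of -4.96. After group means were removed, Tfrc gave r = 0.39 with the summed proliferation markers, -0.29 with the enterocyte and -0.36 with the smooth muscle markers over 16 libraries. The part of cell composition in the sex difference of Tfrc was not tested.

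The relation of uptake to storage was read within each library, where no scaling enters. The log2 ratio of Tfrc to Fth1 counts per kilobase averaged -4.42 ± 0.70 in male WT, -4.60 ± 0.46 in male LKO, -4.86 ± 0.32 in female WT and -5.39 ± 0.43 in female LKO (SD, n = 4 each). Among female LKO libraries 3 of the 4, between -5.73 and -5.50, had the lowest ratios of all. LKO against WT differed by -0.18 in males and -0.53 in females on the log2 scale, with a p of 0.657 and 0.114 (exact two-sided permutation test, smallest possible p 0.0286). Males exceeded females by 0.62, with an exact permutation p of 0.0216 and an adjusted p of 0.0865 over the 8 tests of ratios. That adjusted p fell to 0.0359 without male WT replicate 3 and to 0.0490 without female LKO replicate 4.

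The log2 ratio of Fth1 to Ftl1 averaged 1.58 ± 0.11 in male WT, 1.53 ± 0.07 in male LKO, 1.39 ± 0.06 in female WT and 1.41 ± 0.10 in female LKO (SD, n = 4 each), a 2.78-fold level of counted heavy-chain over light-chain reads per length. Which chain had more transcripts is not settled by it, since the ratio would be 0.595 if no read of the shared Ftl1 stretches had been counted. Males exceeded females by 0.16 on the log2 scale, a 1.11-fold difference, with an exact permutation p of 0.00612 and an adjusted p of 0.0490 over 8 tests. The adjusted p stayed below 0.05 without male WT replicate 3, male LKO replicate 3, female LKO replicate 1 or female LKO replicate 4, and rose to between 0.0522 and 0.101 without any other single library, where the difference was between 0.14 and 0.17. LKO and WT differed by -0.06 in males and 0.02 in females (exact permutation p 0.400 and 0.800).

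**Figure D4:**
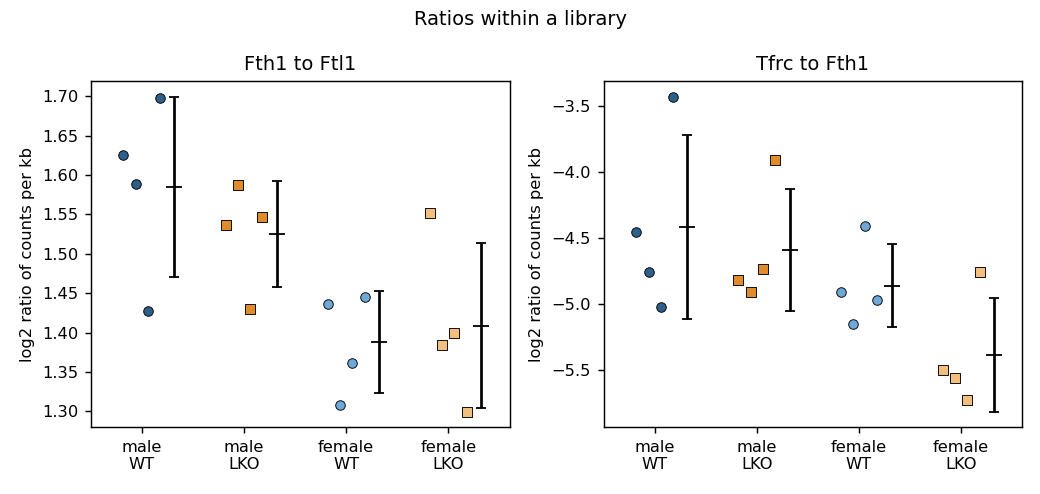
Log2 ratio of counts per kilobase within a library for Fth1 to Ftl1 (left) and Tfrc to Fth1 (right), with 1 point per library and the mean ± SD of each group (n = 4). Male WT has the highest mean of both ratios (1.58 and -4.42), and the female LKO mean of Tfrc to Fth1 (-5.39) is the lowest.

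Within groups, Tfrc, Slc11a2 and Slc40a1 varied together, the ferritin chains varied together, and both Tfrc and Slc11a2 varied against the ferritin chains. Slc40a1 gave r = -0.31 with Fth1 and -0.27 with Ftl1 over all 16 libraries, and with Ftl1 it gave -0.090 in males and -0.79 in females. The values below are Pearson's r of log2 CPM (prior count 2) after the group means were removed, over 16 libraries whose values share the TMM scaling, and are descriptions with no test. Tfrc rose with Slc11a2 (r = 0.66, Spearman's rho = 0.54) and with Slc40a1 (r = 0.64, rho = 0.69), and Slc11a2 rose with Slc40a1 (r = 0.62, rho = 0.57). Tfrc fell as Ftl1 rose (r = -0.71, rho = -0.71) and as Fth1 rose (r = -0.63, rho = -0.48). Slc11a2 also fell as Fth1 rose (r = -0.61, rho = -0.61) and as Ftl1 rose (r = -0.46, rho = -0.53). In males alone these r were -0.85 and -0.62, and in females alone -0.47 and -0.36. The 2 ferritin chains rose together (r = 0.74, rho = 0.79). When the 2 most extreme libraries by Tfrc were left out, r of Tfrc was -0.56 with Ftl1 and -0.63 with Fth1. Without the 2 most extreme by Slc11a2, r of Slc11a2 was 0.54 with Tfrc, 0.46 with Slc40a1, -0.50 with Fth1 and -0.36 with Ftl1. Without the 2 most extreme by Slc40a1, r of Slc40a1 with Tfrc was 0.56, and without those by Fth1 the 2 ferritin chains gave 0.71. In males alone (8 libraries) the r of Tfrc was 0.77 with Slc11a2, 0.68 with Slc40a1, -0.70 with Ftl1 and -0.65 with Fth1, and in females alone it was 0.67, 0.57, -0.75 and -0.71. Of 11765 other genes with at least 5 CPM, 0.620% lay as far from 0 with Tfrc as Ftl1 did in the same direction, 1.99% as far as Fth1, 2.39% as far as Slc11a2 and 2.98% as far as Slc40a1. With Slc11a2, 2.21% lay as far as Fth1 and 7.58% as far as Ftl1. Red cell markers also rose with Tfrc (r = 0.54), Slc11a2 (r = 0.64) and Slc40a1 (r = 0.48) and fell as Ftl1 rose (r = -0.53), with r = -0.28 for Fth1. Over 13 libraries, without the 3 rich in colon markers, these values in the same order were 0.23, 0.59, 0.16, -0.49 and -0.20. Without the 3 rich in B cell markers they were 0.61, 0.61, 0.49, -0.58 and -0.31. The part of red cell markers in the pattern was not tested.

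In single libraries the order was as follows, which restates the same values and is no separate support. The library with the most Tfrc in its group was male WT replicate 4, male LKO replicate 4, female WT replicate 3 and female LKO replicate 4. Ftl1 was the lowest of its group in all 4 of these libraries, at 344, 337, 379 and 379 CPM. Fth1 was the lowest of its group in 3 of them (956, 944 and 905 CPM) and second lowest in male WT replicate 4 (1084 CPM). Slc11a2 was the highest of its group in 3 and second in the other, and the same held for Slc40a1. Cybrd1, Heph and Hmox1 took no fixed place in these libraries, with Heph lowest in both males and highest in both females.

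**Figure D5:**
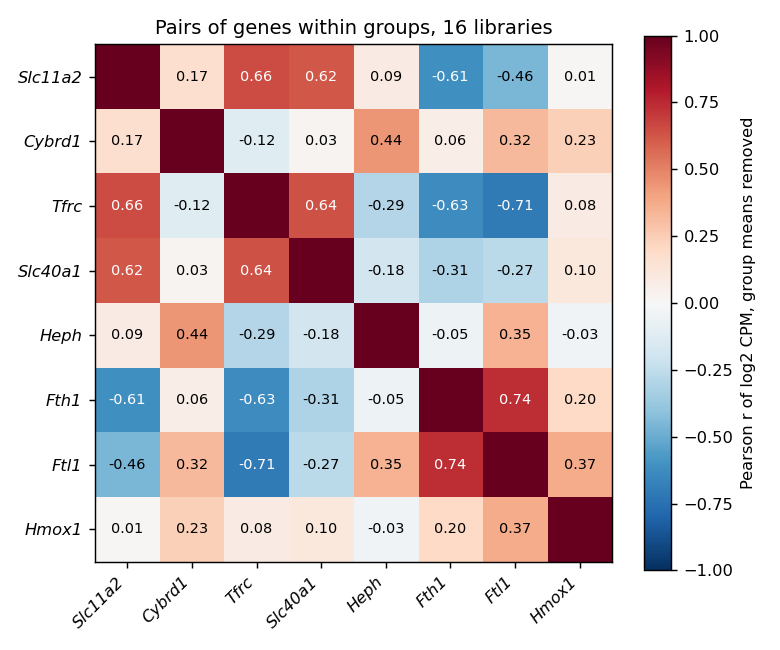
Pearson correlations between the 8 genes over 16 libraries, from log2 CPM after subtracting each group's mean, in red for positive and blue for negative values. Tfrc, Slc11a2 and Slc40a1 form a positive block (0.62 to 0.66), and Fth1 and Ftl1 another (0.74). With Fth1 and Ftl1, Tfrc gives -0.63 and -0.71, and Slc11a2 gives -0.61 and -0.46.

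The genes nearest to each member were named by the same measure among those 11765 genes. They were picked for the highest r, so a high r is no support for a link between the genes. Alas1, the first enzyme of haem synthesis, was the closest to Tfrc (r = 0.88), followed by Dnajb6 (0.88) and Mctp2 (0.86). Heph was closest to Xpnpep1 (0.93), Mbtps1 (0.90) and Slc13a1 (0.88). Fth1 was closest to Fkbp2 (0.88), Ndufa6 (0.86) and Abhd11os (0.86), and Ftl1 to Ndufa13 (0.90), Aup1 (0.88) and Rpl8 (0.88). Slc11a2 was closest to Cmtm6 (0.85), A430088P11Rik (0.82) and Usp25 (0.82), and Slc40a1 to Gusb (0.85), Rnf145 (0.84) and Oraov1 (0.82). Cybrd1 was closest to Slc9a3 (0.83), Ddhd1 (0.80) and Elac1 (0.78), and Hmox1 to Anks1, Kri1 and Duox2 (0.87, 0.86 and 0.86). With the group means kept, r with Cybrd1 was 0.12 for Slc9a3, 0.17 for Ddhd1 and 0.51 for Elac1. In the same way r was 0.26 for Anks1 and 0.53 for Duox2 with Hmox1, and 0.52 for Dnajb6 with Tfrc. The remaining pairs gave 0.67 to 0.91.

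The wider iron pathway was read from 54 further genes, of which 52 were in the table and 45 passed the filter. None of the 45 passed for genotype in males, in females, over both sexes or for the interaction under edgeR. At an unadjusted p below 0.05 stood 3 in males (6.67% of the list against 5.29% of all genes), 10 in females (22.2% against 11.7%), 8 over both sexes (17.8% against 11.2%) and 6 for the interaction (13.3% against 5.64%). The medians of the list were 0.00 in males and 0.02 in females on the log2 scale, and those of all genes 0.00 and 0.01. DESeq2 called 1 gene, Meltf (melanotransferrin, an iron-binding membrane protein), in females, with an edgeR log2 fold change of -0.83 and an adjusted p of 0.206 under edgeR and 0.0458 under DESeq2.

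The iron regulatory proteins had lower means in LKO than WT over both sexes without passing. Aco1 gave a log2 fold change of -0.14 (SE 0.04, adjusted p 0.194) and Ireb2 -0.18 (SE 0.08, adjusted p 0.398), and in females Ireb2 gave -0.33 (adjusted p 0.227). Aco1 ranged from 156 to 202 CPM and Ireb2 from 51.6 to 82.6 CPM over the 16 libraries. Fbxl5, the iron-sensing ligase that removes IREB2, gave 0.11 (adjusted p 0.463), and Ncoa4, the receptor that sends ferritin to lysosomes, gave -0.17 (0.354). Epas1 (HIF-2α), which drives Slc11a2, Cybrd1 and Slc40a1 in hypoxic or iron-poor gut, lay between 106 and 155 CPM and gave 0.00 (SE 0.06). Blvrb, which acts on the products of haem breakdown, gave 0.22 (adjusted p 0.158), Cp -0.05, Flvcr1 0.07, Hfe 0.03, Pcbp1 0.07, Slc39a14 -0.01 and Slc46a1 0.14, with adjusted p between 0.604 and 0.975. Hamp, the hormone hepcidin, and Tfr2 reached at most 0.393 and 0.469 CPM and did not pass the filter.

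Between the sexes 4 of the 45 genes passed, 2 higher and 2 lower in males, against 11.0% of all genes. Alas1 lay between 162 and 276 CPM in males and between 124 and 144 CPM in females, a log2 fold change of 0.57 (SE 0.09) with an adjusted p of 0.00256. Steap1 ranged from 5.38 to 9.81 CPM and from 3.67 to 5.15 CPM, with 0.61 (adjusted p 0.00737). Slc48a1, which carries haem out of lysosomes, was lower in males, at 31.9 to 39.7 CPM against 41.8 to 47.1 CPM, with -0.25 (adjusted p 0.00490). The sexes did not overlap for these 3 genes, as was the case for 0.917% of all genes tested. These 3 were named because they passed this same comparison, so their lack of overlap is no separate support. Slc22a17, the receptor of lipocalin 2, gave -0.37 (adjusted p 0.0200). For the other genes of the list that stand named above the adjusted p between the sexes was between 0.0860 and 0.978.

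Lists tied to transcription factors that act on these genes were read last. Of 14 NRF2 target genes (NRF2 induces Hmox1 and both ferritins) none passed for genotype and 1, Txnrd1, was higher in males (0.24, adjusted p 0.00749). Of 12 tested hypoxia response genes none passed for genotype, and Car9 (0.23) and Kdm3a (0.21) were higher in males. Of all genes tested 11.0% passed between the sexes, so these counts are no result about the lists.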

How the data were processed

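RNA was measured in terminal ileum of 16 mice, grouped by sex and genotype from the sample titles and genotype labels. The authors aligned single-end reads of 100 bases to mm10 with STAR 2.5.2 (unique positions only) and counted exon reads for 1 RefSeq transcript per gene with HOMER 4.10, so the deposited values are raw counts. A strand setting for the counting was not given in the sources used here. Library totals were between 15.7 and 60.3 M.

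Counts were tested with the edgeR 4.0.16 quasi-likelihood F-test in R 4.3.3 (robust fits, TMM, filterByExpr by group, Benjamini-Hochberg, threshold 0.05), on 8 libraries within a sex and on 16 otherwise. The standard error is the log2 fold change divided by the square root of F. The script was tested on simulated counts. Ratios used log2 of counts per kilobase plus 0.5 counts, with exact two-sided permutation within strata (70 or 4900 relabellings) and adjustment over 8 tests. Correlations used a prior count of 2. IRE letters and shared 100-base stretches were read from GENCODE M21 transcripts. DESeq2 1.42.0, RLE and upper-quartile scaling, no filter, the replicate number as a block, the title number as a covariate and leaving out each library were alternatives.

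The 8 genes, the gene lists and the tests were chosen with earlier results of these data known. Always named were the 8 genes, 14 regulators and transporters of the iron list, any gene of that list past the threshold, and the 3 genes most correlated with each of the 8 (at least 5 CPM). Meltf, and single marker genes, were named after their values were seen. The 16 libraries were taken as 16 animals, since each title carries its own number and the study gives 4 per group. Fits without the 3 libraries whose colon markers summed to over 800 CPM, or the 3 whose B cell markers summed to over 100 CPM, were added after seeing the data.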

Additional observations from a re-analysis of the deposited data

Results flagged for a closer look

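In 40 checks of 4 libraries each (8 genes and 2 ratios in 4 groups) a gap between 1 library and the rest of its group exceeded the 95% critical value of Dixon's test 2 times, about what chance gives at 1 in 20. Heph in male WT replicate 4 was at 162 CPM, below the nearest other male WT library at 283 CPM, with a gap of 0.853 of the group's range. Fth1 in female LKO replicate 4 was at 905 CPM, below the nearest other library of its group at 1097 CPM, with a gap of 0.858 of the range. Both libraries held the most Tfrc of their groups (525 and 175 CPM).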

How the results depend on the processing

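Among the 8 genes, no genotype or interaction call was made under DESeq2, RLE scaling, upper-quartile scaling, no filter, the title number or without any single library. The same held without the libraries rich in colon or in B cell markers, settings chosen after seeing the data. With the replicate block, Slc40a1 in males gave 0.53 with an adjusted p of 0.0313 and Slc11a2 between the sexes an adjusted p of 0.0363. The latter was also below 0.05 without male LKO replicate 2 (0.0469) or female WT replicate 3 (0.00797). Libraries with the same number correlated by -0.11 to 0.07 in males and by -0.06 to 0.25 in females, and 1 of 4 male and 2 of 4 female libraries correlated best with their own number, so the numbers do not pair the samples. The block gave 16 calls in males, 15 in females and 16 over both sexes, against 8, 6 and 42. DESeq2 gave 63, 154 and 224, and no filter gave 25 in males and 15 in females. The title number as a covariate gave 3 calls in males, 2 over both sexes and 326 between the sexes (1723 without it). It turned 5 differences that had not passed: Heph to 0.52, Fth1 to 0.032 and Ftl1 to 0.12 in males, Heph to -0.10 in females, and Tfrc to -0.22 for the interaction. The causes of these changes were not tested.

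Leaving out 1 library gave 5 (without male WT replicate 1) to 29 calls (without male WT replicate 4) in males, 0 (without female LKO replicate 1, 3 or 4) to 4 (without female WT replicate 2) in females, 5 (without male WT replicate 1) to 102 (without male WT replicate 4) over both sexes, 0 to 1 (without female WT replicate 1) for the interaction (879 genes at an unadjusted p below 0.05 with all libraries) and 934 (without male LKO replicate 3) to 1956 (without female WT replicate 3) between the sexes. It turned the sign of these differences, none of which passed. In males the ranges were -0.13 to 0.017 for Slc11a2, -0.55 to 0.084 for Tfrc, -0.088 to 0.078 for Ftl1 and -0.089 to 0.10 for Hmox1. In females they were -0.028 to 0.077 for Cybrd1, -0.17 to 0.0094 for Slc40a1 and -0.061 to 0.30 for Heph. Over both sexes they were -0.16 to 0.029 for Heph and -0.011 to 0.043 for Fth1, and for the interaction -0.13 to 0.51 for Tfrc. The ratio of Tfrc to Fth1 ranged from -0.41 to 0.15 in males and from 0.45 to 0.72 between the sexes, and that of Fth1 to Ftl1 from -0.027 to 0.057 in females and from 0.14 to 0.18 between the sexes. The ratios did not change in direction or call without the 0.5 counts.

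Without the 3 libraries rich in colon markers there were 39 calls in males, 1 in females and 1016 between the sexes. Differences that had not passed turned to 0.050 for Slc11a2, 0.17 for Tfrc and 0.13 for Hmox1 in males, to -2.9e-04 for Cybrd1 and -0.061 for Heph in females, and to -5.6e-05 for Ftl1 over both sexes. Without the 3 rich in B cell markers there were 3 calls in females, 4 over both sexes and 765 between the sexes. Here the turned values were -0.013 for Cybrd1, 0.066 for Slc40a1 and -0.013 for Ftl1 in females, -0.030 for Fth1 and -0.023 for Ftl1 over both sexes, and -0.22 for Tfrc in the interaction.

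Whole-tissue counts cannot separate cell number from RNA per cell. Genotype and title number cannot be told apart in males, and sex and title number are confounded in part. Transcript counts do not measure ferritin or ferroportin protein.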
